A study of Mus musculus with 6 samples.

Results

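The pituitary receptors through which the hypothalamus and the stomach hormone ghrelin act on hormone-secreting cells were examined in RNA from mouse pituitary glands. The members are 9 genes, chosen by name as receptors for hypothalamic hormones, ghrelin, dopamine and somatostatin: Trhr, Gnrhr, Ghrhr, Ghsr, Drd2, Sstr1, Sstr2, Sstr3 and Sstr5. They were found by gene name among the 50348 gene names of the 6 tables, and all 9 were found. Each group has 1 library, so the libraries are compared with no replicate check, and no test between animals was possible.

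Thyrotropin-releasing hormone, gonadotropin-releasing hormone and growth hormone-releasing hormone reach the anterior pituitary through the portal vessels and act on G protein-coupled receptors of thyrotropes, gonadotropes and somatotropes. Thyrotropes make thyrotropin, gonadotropes make luteinizing and follicle-stimulating hormone, somatotropes make growth hormone and lactotropes make prolactin. Dopamine and somatostatin are the main inhibitory signals. Dopamine restrains prolactin release through the receptor encoded by Drd2, and somatostatin restrains the release of growth hormone and thyrotropin through several related receptors.

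The sorted libraries were adult Tshbcre (42 glands), adult Lhbcre (7 glands), adult Ghcre (12 glands) and postnatal day 7 (P7) Tshbcre (5 glands). In each, a Cre recombinase named for a hormone subunit or hormone gene was crossed to a ROSAYFP reporter (genotypes Tshbcre-YFP, Lhbcre-YFP and Ghcre-YFP), and glands of 1 genotype were pooled, dispersed with collagenase and sorted for fluorescence. Such a reporter stays on once recombined, so it marks cells that have expressed the driver and their descendants, whether or not the driver is still active. The comparison libraries held all cells of nontransgenic glands, 1 adult gland and 8 P7 glands. Adult mice were 7 weeks old, and the sources used here do not give the sex of the animals.

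Levels are given as scaled FPKM, which is fragments per kilobase of transcript relative to the mapped fragments of a library, summed over the annotated isoforms of a gene and divided by 1 factor per library. The Ghcre table ends within chromosome 5, so Gnrhr, Ghrhr and Drd2, which lie past its end, are not measured there. Relative depth, read from the constant ratio of deposited coverage to FPKM, ran from 1 in the adult whole gland to 2.73 in the Ghcre library. Tshb was at 1075 scaled FPKM in adult Tshbcre and 3001 in P7 Tshbcre cells, against 33.1 in the adult and 61.0 in the P7 whole gland. The gonadotrope genes were also high in adult Tshbcre cells, with Lhb at 2904, against 2198 in Lhbcre cells and 637 in the adult whole gland. Gh was not listed in the Ghcre library, nor in the Lhbcre and adult whole libraries, which do not end early. Its missing value is not read as absence. In Ghcre cells Pappa2 and Neurod4 of the somatotrope list stood at 32.8 and 15.8, against 18.7 and 5.07 in the adult whole gland. In bulk RNA, fewer cells of a type and less RNA per cell cannot be told apart. Xist, the RNA of the inactive X chromosome, was at 29.4 in Lhbcre cells and at 0.106 and 0.0599 in adult Tshbcre cells and the adult whole gland, while the Y-linked Ddx3y was at 0.0122, 3.20 and 2.61 in the same libraries. Every comparison of the Lhbcre library with those libraries therefore joins lineage with sex markers, and these cannot be told apart. Xist and Ddx3y are not listed in the Ghcre library, so its sex markers are not known. Both P7 libraries had Xist, at 62.6 in Tshbcre cells and 17.0 in the whole gland, together with Ddx3y, at 2.09 and 2.12. The comparison of the P7 libraries with each other thus joins lineage with a difference in Xist, and these cannot be told apart. Both comparisons of adult with P7 libraries therefore join age with Xist, near 0 in the adult libraries, and these cannot be told apart either. Adult and P7 Tshbcre cells also differed in summed markers of other cells. Stem and folliculostellate markers were at 53.1 and 3.92, immune at 52.3 and 2.48, endothelial at 15.4 and 3.61 and mesenchymal at 15.1 and 4.40. Erythroid and posterior lobe markers ran the other way, at 130 and 202 and at 1.28 and 1.43. Age cannot be told apart from these levels there.

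The receptor that led the annotated levels differed between libraries. Gnrhr was the highest receptor in adult Tshbcre and adult Lhbcre cells, with 48.2% and 70.5% of the summed level of the 9 receptors. Trhr led in P7 Tshbcre cells, with 40.5%. Ghrhr led in both whole glands, with 38.7% in the adult gland and 46.2% in the P7 gland. Among the 6 receptors listed in Ghcre cells, Sstr3 led with 54.7%, or Sstr5 with 33.9% once assembled transcripts were added. Ghsr was under 1 scaled FPKM in every library on annotated isoforms.

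Cufflinks also assembled transcripts without a gene name in several receptor loci. An annotated level of 0 can therefore mean that the reads of the locus were assigned to an assembled transcript. Receptors are given on annotated isoforms, and again with assembled transcripts of at least 200 nt added where the locus held any, which it did for all but Sstr1 and Sstr3. The addition is uneven between libraries, since 65.8% of the unnamed transcripts reached that length in the adult whole gland and 4.25% in Lhbcre cells. Brackets described as deposited bounds are those of FPKM, summed over isoforms, and cover counting and assignment within a library only. A receptor is called 4-fold apart when log2(scaled FPKM + 1) differs by 2 or more and the higher library is at 1 scaled FPKM or more. A fold is the ratio of the 2 values after adding 1, so low genes differ by more than their fold says.

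**Figure D1:**
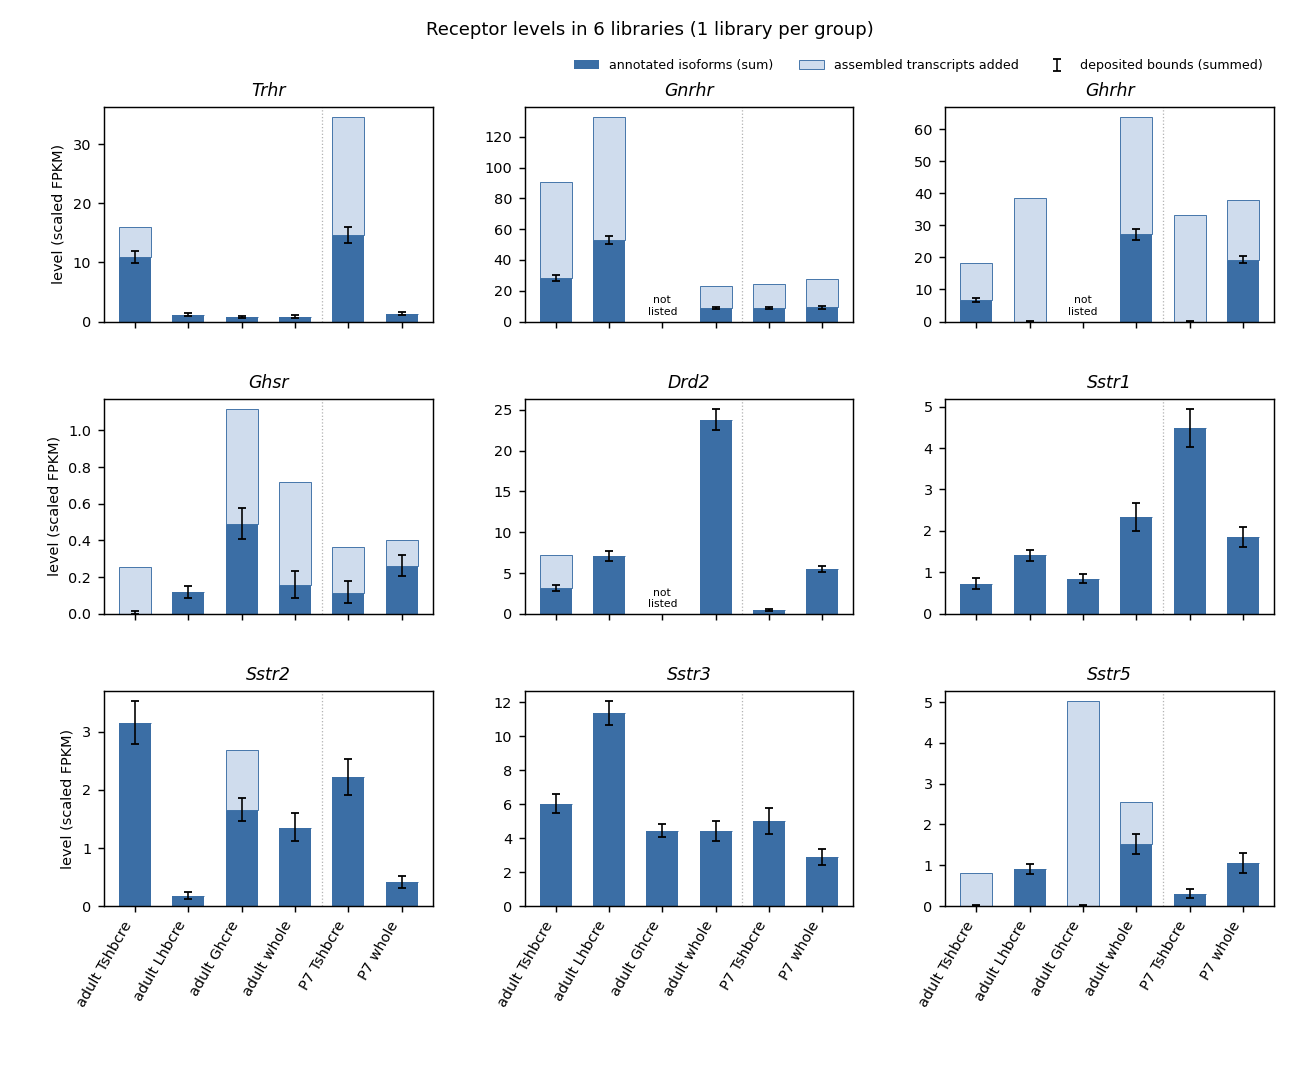
Level of each receptor, in scaled FPKM on a linear axis, in the 6 libraries. Dark bars are the sum of annotated isoforms, black lines the deposited bounds, and pale bars the assembled transcripts added. Trhr stands high in both Tshbcre libraries, Gnrhr in Lhbcre and adult Tshbcre cells, and Ghrhr and Drd2 in the adult whole gland, where Ghrhr is 27.2 and Drd2 is 23.8.

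Trhr encodes the receptor for thyrotropin-releasing hormone (mm39, chr15:44059314-44099308, annotated in 2 isoforms). It stood at 10.9 scaled FPKM in adult Tshbcre cells, 1.17 in Lhbcre cells, 0.688 in Ghcre cells and 0.790 in the adult whole gland. The P7 levels were 14.6 in Tshbcre cells and 1.36 in the whole gland. Both Tshbcre libraries were high and the other 4 were low, and the deposited bounds of the 2 Tshbcre libraries, 9.86 to 11.9 in the adult and 13.3 to 15.9 at P7, lay above the bounds of all the others. Trhr was 6.63-fold higher in Tshbcre cells than in the whole gland in the adult and 6.64-fold higher at P7. It was 5.46-fold higher in adult Tshbcre than in Lhbcre cells and 7.03-fold higher than in Ghcre cells. The 4 low libraries held no assembled transcript of 200 nt or more in the locus, and with the addition the adult and P7 Tshbcre libraries reached 16.0 and 34.6. Between the Tshbcre libraries the adult was 1.32-fold lower on annotated isoforms and 2.10-fold lower with the addition.

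The isoforms of Trhr were divided unevenly. The 3976 nt isoform carried 68.6% of the annotated level in adult Tshbcre cells and 58.6% in P7 Tshbcre cells. The 1641 nt isoform carried all of it in Lhbcre cells, 80.0% in Ghcre cells and 65.6% in the adult whole gland. It carried 57.7% in the P7 whole gland. On the most abundant isoform alone, the log2 difference between adult Tshbcre and Lhbcre cells was 1.96, just under 4-fold. Most thyrotrope markers were also higher in Tshbcre cells than in the whole gland. All 5 measured markers were above the whole gland in P7 Tshbcre cells and 4 of 5 in adult Tshbcre cells, with a summed level of 7729 against 889 in the adult and 12816 against 849 at P7. None was listed at 0, and Pou1f1 was the one below, at 23.1 in adult Tshbcre cells and 39.0 in the adult whole gland. The list shares Cga and Gata2 with the gonadotrope list, and Cga made up 6546 of the adult and 9593 of the P7 Tshbcre sum. In Lhbcre cells the marker sum was 3700, of which 3649 was Cga, with Trhr at 1.17. The part of thyrotrope RNA in the Trhr levels was not tested.

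Gnrhr encodes the receptor for gonadotropin-releasing hormone (mm39, chr5:86328613-86345760, annotated in 4 isoforms). It stood at 28.4 scaled FPKM in adult Tshbcre cells, 53.2 in Lhbcre cells and 8.69 in the adult whole gland. P7 Tshbcre cells had 8.91 and the P7 whole gland 9.17. The Lhbcre library was highest and the adult Tshbcre library came next, and the deposited bounds of both lay apart from each other and from the rest. The other 3 libraries lay between 8.69 and 9.17 and had overlapping bounds. With assembled transcripts added, the order of the first 2 libraries was kept, at 133 in Lhbcre and 90.6 in adult Tshbcre cells, against 23.0 to 27.9 in the other 3.

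Gnrhr was 5.60-fold higher in Lhbcre cells than in the adult whole gland and 3.04-fold higher in adult Tshbcre cells. At P7 the log2 difference between Tshbcre cells and the whole gland was -0.04. The adult Tshbcre library stood 1.57 above the P7 Tshbcre library on the log2 scale, while the adult and P7 whole glands differed by 1.05-fold. The difference between those contrasts was not tested. Beside these values, all 6 gonadotrope markers were 4-fold higher in adult Tshbcre cells than in the adult whole gland, and 2 of 6 in Lhbcre cells. Between those sorted libraries most markers ran the other way from Gnrhr on annotated isoforms, with 5 of 6 higher in Tshbcre cells. Of these, 2 were 4-fold higher than in Lhbcre cells, Fshb, and Foxl2 against a level of 0. With assembled transcripts added Foxl2 was under 4-fold, at 27.5 in Tshbcre against 12.5 in Lhbcre cells. Nr5a1 was lower in Tshbcre cells on annotated isoforms, as Gnrhr was. With the addition Nr5a1 was near equal, at 55.7 in Tshbcre against 55.5 in Lhbcre cells. The summed level of the markers on annotated isoforms was 10470 in adult Tshbcre cells, 6133 in Lhbcre cells and 1635 in the adult whole gland. Foxl2 was at 0 in the Lhbcre and adult whole libraries on annotated isoforms, and at 12.5 and 4.63 with the addition. At P7 the sum was 11372 in Tshbcre cells, against 1166 in the whole gland, with Nr5a1 and Foxl2 at 0 in Tshbcre cells. Of that P7 Tshbcre sum, 9593 is Cga, the alpha subunit that gonadotropes and thyrotropes share. The part of other cells in the Gnrhr difference was not tested.

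The level of Gnrhr rested on a different isoform in the Lhbcre library. All of its annotated level there was on the 1528 nt isoform, and in the other 4 libraries all of it was on the 2482 nt isoform. FPKM divides by isoform length, so a shorter assigned isoform raises the value for the same fragments. With the fragments divided by the longest isoform in every library, Lhbcre cells stood at 32.8 and the log2 difference from the adult whole gland was 1.80, under 4-fold. The Lhbcre level then remained above the 28.4 of adult Tshbcre cells.

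The start region of Gnrhr is shown because this receptor had the highest level of all members in any library, 250 bases before and 50 after the annotated start. It was read from RefSeq on GRCm38.p6 at chr5:86197852-86198151, minus strand, and the bases after the start are in capitals.
Gnrhr: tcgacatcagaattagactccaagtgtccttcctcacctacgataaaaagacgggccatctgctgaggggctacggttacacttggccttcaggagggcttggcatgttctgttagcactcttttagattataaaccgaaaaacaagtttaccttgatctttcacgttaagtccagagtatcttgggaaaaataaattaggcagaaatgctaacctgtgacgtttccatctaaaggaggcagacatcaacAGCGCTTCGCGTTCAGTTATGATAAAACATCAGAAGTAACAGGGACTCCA
Of the 300 bases 43.3% are G or C, below the median of 52.7% over 32851 promoter windows, and CpG occurs 10 times, against a median of 7. The letters CAAGGTCA, a site of the gonadotrope nuclear receptor Nr5a1, were looked for on both strands, as were ATGNATA for Pou1f1 and TGANTCA for AP-1. None of these letters is in this window. They are in 1.56%, 8.84% and 7.81% of all windows, and sites elsewhere were not examined.

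**Figure D2:**
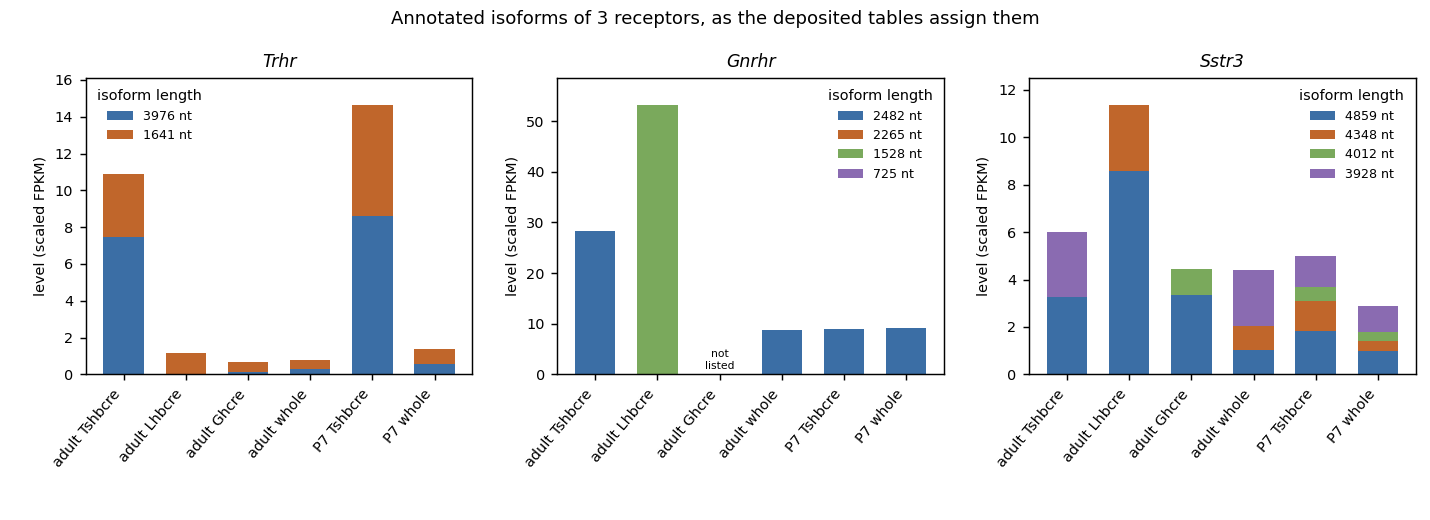
Annotated isoforms of Trhr, Gnrhr and Sstr3, stacked by length, in scaled FPKM in each library. The Gnrhr bar of the Lhbcre library is wholly the 1528 nt isoform and reaches 53.2, while the other 4 measured libraries show the 2482 nt isoform only.

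Ghrhr encodes the receptor for growth hormone-releasing hormone (mm39, chr6:55353204-55365515, annotated in 2 isoforms). It stood at 6.69 scaled FPKM in adult Tshbcre cells and 27.2 in the adult whole gland, and was listed at 0 in Lhbcre cells. At P7 it was listed at 0 in Tshbcre cells and stood at 19.3 in the whole gland. The whole glands were high and the sorted libraries low on annotated isoforms, and adult Tshbcre cells were 3.67-fold lower than the adult whole gland.

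The zeros of Ghrhr did not hold when the assembled transcripts of the locus were counted. With them, Ghrhr stood at 18.1 in adult Tshbcre cells, 38.5 in Lhbcre cells and 63.9 in the adult whole gland, and at 33.4 in P7 Tshbcre cells, against 38.0 in the P7 whole gland. The Lhbcre library was then 1.64-fold lower than the adult whole gland and the P7 Tshbcre library 1.14-fold lower than the P7 whole gland. In Lhbcre cells the locus held 3 assembled transcripts of 1449 to 2721 nt, and in P7 Tshbcre cells 2 of 1088 and 1452 nt. The adult Tshbcre library lay above Lhbcre and P7 Tshbcre cells on annotated isoforms, and below both with the addition, with log2 differences of -1.05 and -0.85. The sum of the somatotrope markers listed in all libraries was 29.7 in adult Tshbcre, 32.1 in Lhbcre and 62.8 in the adult whole gland. Pappa2 was at 0 in Lhbcre cells on annotated isoforms, and at 7.49 with the addition, against 22.9 in the adult whole gland. At P7 the sum was 44.8 in Tshbcre cells and 28.8 in the whole gland. Pou1f1, which the thyrotrope and lactotrope lists share, made up 38.3 and 21.4 of these P7 sums. It made up 23.1, 18.8 and 39.0 of the sums in adult Tshbcre, Lhbcre and adult whole libraries. At P7 Neurod4 was lower in Tshbcre cells than in the whole gland, at 2.36 against 4.02, and Pappa2 higher, at 4.12 against 3.36. Gh itself was at 14806 in adult Tshbcre cells, and at 3870 in P7 Tshbcre cells, against 6031 in the P7 whole gland. It was not listed in the other 3 libraries. The part of somatotrope RNA in the Ghrhr levels of the sorted libraries was not tested.

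Ghsr encodes the ghrelin receptor, which stimulates growth hormone release (mm39, chr3:27425500-27433384). It was listed at 0 in adult Tshbcre cells and stood at 0.117 in Lhbcre cells, 0.490 in Ghcre cells and 0.158 in the adult whole gland. At P7 the level was 0.116 for Tshbcre cells and 0.263 for the whole gland. Ghcre cells had the highest value, and their deposited bounds, 0.405 to 0.578, lay above those of every other library. With the assembled transcript of 5658 nt that 5 libraries held in the locus, Ghcre cells reached 1.12, the adult whole gland 0.720 and the rest 0.117 to 0.404. No pair of libraries compared was 4-fold apart on either value. On annotated isoforms no call was possible, since every library lay under the floor of 1 scaled FPKM.

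Drd2 encodes the dopamine receptor of lactotropes and melanotropes (mm39, chr9:49251633-49319477). It overlaps the predicted gene Gm46111, from which its reads cannot be told apart without strand information. Drd2 stood at 3.12 scaled FPKM in adult Tshbcre cells, 7.08 in Lhbcre cells and 23.8 in the adult whole gland. P7 Tshbcre cells were at 0.484, against 5.52 in the P7 whole gland. The whole gland was above the Tshbcre library of the same age at both ages, and no deposited bounds of the 5 libraries overlapped.

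Tshbcre cells were 6.02-fold lower than the whole gland in the adult and 4.39-fold lower at P7. The adult difference fell to 3.01-fold when an assembled transcript of 2214 nt in adult Tshbcre cells was added, which took that library to 7.25. Scaling to an equal sum over annotated genes took the P7 log2 difference to -1.90. Lhbcre cells were 3.07-fold lower than the adult whole gland, with 23.0% of the level on the 2754 nt isoform, which was at 0 in the other 4 libraries. The adult whole gland was 3.81-fold higher than the P7 whole gland, just under the 4-fold limit, and adult Tshbcre cells were 2.78-fold higher than P7 Tshbcre cells. With the addition that last difference was 5.56-fold, past the limit.

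Lactotropes and melanotropes are the cells known for Drd2. Prl was at 6546 in adult Tshbcre cells and 17579 in the adult whole gland, and at 21.7 in P7 Tshbcre cells, against 82.5 in the P7 whole gland. No lactotrope marker was 4-fold apart in either comparison. Of the 4, 3 were below the whole gland in adult Tshbcre cells and 2 in P7 Tshbcre cells, with Esr1 above it at both ages and Pou1f1 above it at P7. Of the 4 melanotrope markers, 2 were 4-fold lower in Tshbcre cells than in the whole gland in the adult and 2 at P7, and none was at 0. Their summed level was 278 against 1594 in the adult and 92.4 against 1467 at P7. Between the whole glands the lactotrope sum was 17647 in the adult and 112 at P7, mostly Prl, and without Prl it was 67.9 in the adult and 29.6 at P7, while the melanotrope sum was 1594 in the adult and 1467 at P7. The part of these cells in the Drd2 levels was not tested.

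The somatostatin receptors all signal through inhibitory G proteins. The 4 genes measured here differed in where they were highest. Sstr3 was the only one at 1 scaled FPKM or more in all 6 libraries on annotated isoforms. On annotated isoforms Sstr2 was highest in adult Tshbcre cells, Sstr3 in Lhbcre cells, Sstr1 in P7 Tshbcre cells and Sstr5 in the adult whole gland. None of the 4 was called 4-fold apart in any of the 9 comparisons, and with a pseudocount of 0.1 Sstr1, Sstr2 and Sstr5 were called in 1 or more.

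Sstr1 (mm39, chr12:58258230-58262822) stood at 0.730 scaled FPKM in adult Tshbcre cells, 1.41 in Lhbcre cells, 0.852 in Ghcre cells and 2.34 in the adult whole gland. The P7 levels were 4.48 in Tshbcre cells and 1.86 in the whole gland. The P7 Tshbcre library was highest and the adult Tshbcre library lowest. Sstr1 was 3.17-fold lower in adult than in P7 Tshbcre cells, and 1.93-fold lower in adult Tshbcre cells than in the adult whole gland. At P7 it was 1.92-fold higher in Tshbcre cells than in the whole gland. No assembled transcript of 200 nt or more was added in its locus. The 4194 nt isoform carried 10.5% of the level in P7 Tshbcre cells, 15.1% in the P7 whole gland and 17.8% in the adult whole gland, and was at 0 in the 3 adult sorted libraries.

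Sstr2, the main receptor of growth hormone and thyrotropin inhibition by somatostatin (mm39, chr11:113510153-113516854), overlaps Slc39a11. It stood at 3.15 scaled FPKM in adult Tshbcre cells, 0.175 in Lhbcre cells, 1.66 in Ghcre cells and 1.35 in the adult whole gland. P7 Tshbcre cells had 2.22 and the P7 whole gland 0.409. The Tshbcre libraries were the highest, and Lhbcre cells were the lowest of all 6 libraries. With an assembled transcript of 879 nt added, Ghcre cells reached 2.68, above P7 Tshbcre cells and below adult Tshbcre cells. Scaling to an equal sum put Ghcre above adult Tshbcre cells, with a log2 difference of -0.33 for Tshbcre over Ghcre cells, against 0.64 in the scaling used here. The level was 3.53-fold higher in adult Tshbcre than in Lhbcre cells, 1.77-fold higher in adult Tshbcre cells than in the adult whole gland and 2.28-fold higher in P7 Tshbcre cells than in the P7 whole gland. The first and the last of these passed the limit with a pseudocount of 0.1 in place of 1, as did the differences of Lhbcre cells from Ghcre cells and the adult whole gland. All of the annotated level was on the 2158 nt isoform, with the 1819 nt isoform at 0 in every library.

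Sstr3 (mm39, chr15:78421214-78433565) stood at 6.02 scaled FPKM in adult Tshbcre cells, 11.4 in Lhbcre cells, 4.45 in Ghcre cells and 4.40 in the adult whole gland. At P7 the level was 5.00 for Tshbcre cells and 2.90 for the whole gland. Lhbcre cells were highest, with deposited bounds of 10.7 to 12.1 above those of every other library. The difference was 2.29-fold from the adult whole gland and 2.27-fold from Ghcre cells. Adult Tshbcre, P7 Tshbcre, Ghcre and adult whole libraries each overlapped the next in bounds.

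The annotated isoforms of Sstr3 start at 4 places on the minus strand. The 4859 nt isoform, which starts farthest upstream, carried 75.4% of the level in Lhbcre cells, 74.9% in Ghcre cells and 54.2% in adult Tshbcre cells, against 23.8% in the adult whole gland. It carried 36.9% in P7 Tshbcre cells and 34.2% in the P7 whole gland. The 3928 nt isoform carried 45.8% in adult Tshbcre cells and 54.1% in the adult whole gland, and was at 0 in Lhbcre and Ghcre cells. The 4012 nt isoform, whose start lies 2939 bases farther downstream, was at 0 in adult Tshbcre and Lhbcre cells and in the adult whole gland, and carried 25.1% in Ghcre cells. At P7 it carried 11.8% in Tshbcre cells and 13.8% in the whole gland.

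The start regions of the 3928 nt and 4012 nt isoforms are shown because their use as assigned differed between libraries. RefSeq gives them on GRCm38.p6 at chr15:78544296-78544595 and chr15:78541357-78541656, minus strand, and their starts are also 2939 bases apart. Capitals mark the bases after each start.
Sstr3 upstream start: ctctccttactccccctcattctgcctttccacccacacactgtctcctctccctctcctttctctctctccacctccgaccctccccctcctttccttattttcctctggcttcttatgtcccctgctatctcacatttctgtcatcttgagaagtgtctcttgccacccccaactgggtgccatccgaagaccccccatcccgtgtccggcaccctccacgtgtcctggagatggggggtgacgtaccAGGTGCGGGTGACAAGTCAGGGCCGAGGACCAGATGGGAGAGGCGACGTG
Sstr3 downstream start: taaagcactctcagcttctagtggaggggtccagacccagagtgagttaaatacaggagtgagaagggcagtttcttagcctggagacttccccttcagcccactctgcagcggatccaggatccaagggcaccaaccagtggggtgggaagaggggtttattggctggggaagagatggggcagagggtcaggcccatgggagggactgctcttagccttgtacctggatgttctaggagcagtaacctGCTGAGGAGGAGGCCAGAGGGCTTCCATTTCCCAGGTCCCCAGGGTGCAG
The upstream window has 58.7% G or C and 10 CpG, and the downstream window 57.3% and 1 CpG. None of the letters searched in Gnrhr is in either window, nor in the windows of Ghsr, Drd2 and Sstr2. Of the 9 receptors, 5 had a window in the RefSeq table.

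Sstr5 (mm39, chr17:25708849-25716262) overlaps the predicted gene LOC118568321. It was listed at 0 in adult Tshbcre and in Ghcre cells, and stood at 0.899 in Lhbcre cells and 1.51 in the adult whole gland. P7 Tshbcre cells were at 0.302, against 1.05 in the P7 whole gland. With assembled transcripts added, the Ghcre library was the highest at 5.02, from a transcript of 2503 nt, against 2.56 in the adult whole gland. Adult Tshbcre cells then stood at 0.808. The order of Ghcre cells and the adult whole gland thus turned with the assignment of reads, with log2 differences of -1.33 on annotated isoforms and 0.76 with the addition. The annotated zero of Ghcre cells is not read as absence.

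Counts over the 9 receptors are given beside the share of all genes called in the same direction. In adult Tshbcre cells against the adult whole gland, 1 receptor was 4-fold higher (Trhr) and 1 lower (Drd2), beside 3.22% and 3.84% of 15797 genes. In Lhbcre cells against the adult whole gland, 1 was higher (Gnrhr) and 1 lower (Ghrhr, listed at 0), beside 3.85% and 5.46% of genes. In Ghcre cells against the adult whole gland, none of the 6 receptors listed was apart, beside 4.44% of genes higher and 5.36% lower. At P7, 1 was higher in Tshbcre cells (Trhr) and 2 lower (Drd2, and Ghrhr at 0), beside 3.26% and 6.11% of genes.

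Among the sorted adult libraries, 2 receptors were higher in Tshbcre than in Lhbcre cells (Trhr, and Ghrhr against a level of 0) and none lower, beside 4.97% and 4.33% of genes. Of 6 receptors, 1 was higher in Tshbcre than in Ghcre cells (Trhr) and none lower, beside 5.24% and 5.13%. None was apart in Lhbcre against Ghcre cells, beside 4.2% of genes higher and 5.23% lower. Between the ages, no receptor was apart in the adult against the P7 whole gland, beside 3.28% of genes higher and 3.31% lower. In adult against P7 Tshbcre cells, 1 was higher (Ghrhr, against a level of 0) and none lower, beside 4.64% and 3.57%. Many of the genes called have 1 library listed at 0. Over genes above 0 in both libraries, 0.634% were higher and 0.803% lower in adult Tshbcre cells against the adult whole gland, 1.13% and 1.3% in Lhbcre cells against it, and 0.958% and 2.21% in P7 Tshbcre cells against the P7 whole gland. Trhr, Gnrhr and the 2 calls of Drd2 are of that kind. With assembled transcripts added, Trhr was the only receptor called in adult Tshbcre cells against the adult whole gland, beside 4.98% of genes in either direction, and Gnrhr the only one in Lhbcre cells against it, beside 6.77%. In adult against P7 Tshbcre cells the receptor called was then Drd2 and no longer Ghrhr, beside 5.66%. Comparisons with the same whole gland or sorted library share that library.

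**Figure D3:**
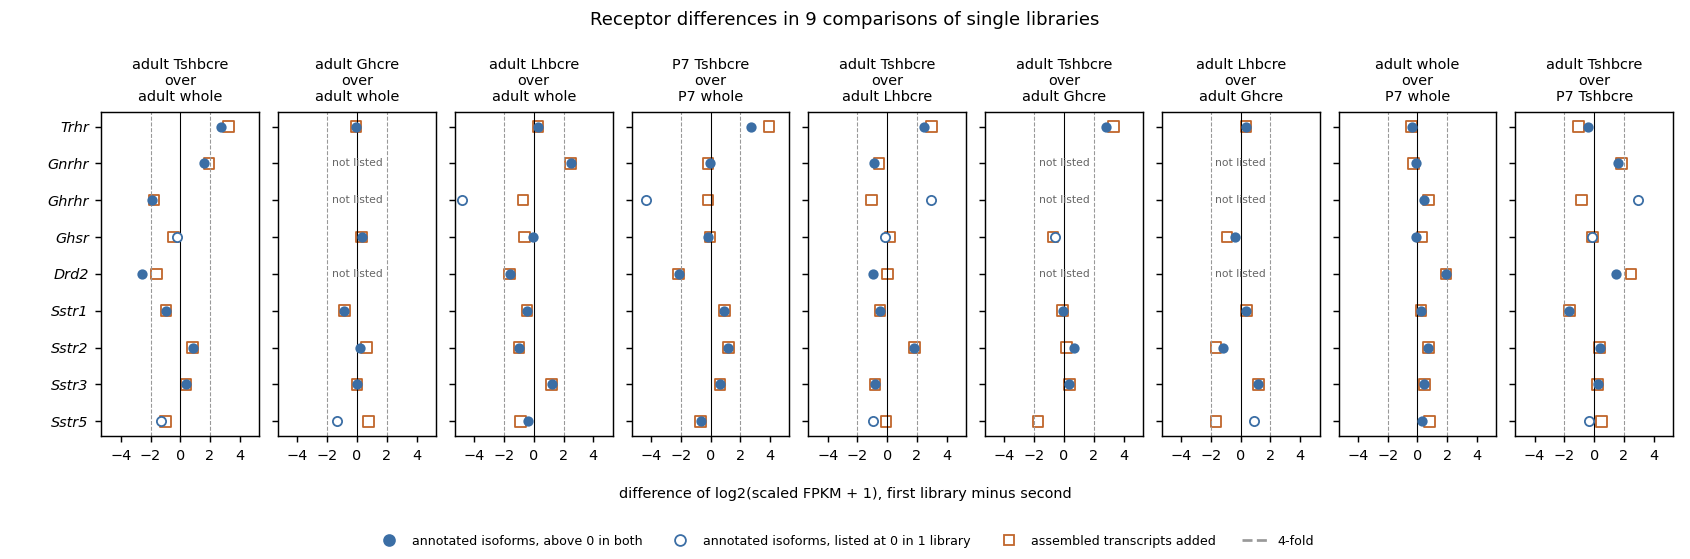
Difference of log2(scaled FPKM + 1) for each receptor in the 9 comparisons, first library minus second. Filled points are annotated isoforms above 0 in both libraries, open points have 1 library listed at 0, orange squares have assembled transcripts added, and dashed lines mark 4-fold. Trhr lies right of 4-fold in every comparison of a Tshbcre library with another kind, and the open Ghrhr points part from their squares.

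Other receptors of pituitary cells were mostly low. Of 35 further receptor genes for peptides and amines, 9 reached 1 scaled FPKM in some library on annotated isoforms. Adcyap1r1, the receptor for pituitary adenylate cyclase-activating peptide, was the highest, at 6.50 in adult Tshbcre cells, 9.62 in Lhbcre cells and 3.83 in the adult whole gland. The P7 levels were 3.96 in Tshbcre cells and 4.20 in the whole gland. With assembled transcripts added, adult Tshbcre cells stood at 19.5, above the 9.62 of Lhbcre cells and the 5.48 of the adult whole gland. P7 Tshbcre cells stayed at 3.96. Of 7 genes at the floor in adult against P7 Tshbcre cells, Adcyap1r1 and Drd4 were then called higher, beside 3.03% of all genes. On annotated isoforms none of the 35 was called in adult Tshbcre or Lhbcre cells against the adult whole gland, where 7 and 4 reached the floor, beside 3.22% and 3.85% of all genes higher and 3.84% and 5.46% lower. A count of none in so few genes is near those shares. Of the 7 genes in adult Tshbcre cells against the adult whole gland, the median log2 difference was 0.73, beside -0.02 over all genes. Drd3, Drd4, Npy1r, Hcrtr1 and Gpr101 reached the floor in adult Tshbcre cells but not in the adult whole gland. The median thus follows in part from the floor and is not read as a shift of the list. With assembled transcripts added, Drd4 was called in adult Tshbcre cells, at 5.22 against 0.543, and the oxytocin receptor gene Oxtr in Lhbcre cells, at 4.91 against 0.0864. Each is 1 of 8 genes of the list at the floor in its comparison, beside 2.51% and 2.9% of all genes called higher.

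Drd3 and Drd4 encode other inhibitory dopamine receptors. Drd3 stood at 4.10 in adult Tshbcre cells, 5.07 in Lhbcre cells, 0.116 in Ghcre cells and 0.671 in the adult whole gland, and was 4.57-fold and 5.43-fold higher in Tshbcre and Lhbcre than in Ghcre cells. In each of those comparisons it was 1 of 2 genes of the list at the floor, beside 5.24% and 4.2% of all genes higher. P7 Tshbcre cells had 0.585 and the P7 whole gland 0.791. Drd4 stood at 4.23 in adult Tshbcre cells, 0.268 in Lhbcre cells and 0.543 in the adult whole gland, and was 4.12-fold higher in Tshbcre than in Lhbcre cells. It was the 1 called of 8 genes of the list at the floor there, beside 4.97% of all genes higher. Drd4 was at 0.342 in P7 Tshbcre cells and listed at 0 in the P7 whole gland.

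Hcrtr1, an orexin receptor, stood at 2.71 in adult Tshbcre cells, 0.765 in Ghcre cells and 4.04 in P7 Tshbcre cells. It was listed at 0 in Lhbcre cells and the adult whole gland, and was 0.228 in the P7 whole gland. The zeros did not hold with assembled transcripts added, at 0.504 in Lhbcre cells and 1.08 in the adult whole gland. Adult Tshbcre cells then had 5.50, P7 Tshbcre cells 6.04 and the P7 whole gland 0.608. On annotated isoforms Hcrtr1 was 4.11-fold higher in P7 Tshbcre cells than in the P7 whole gland. It was the 1 called of 5 genes of the list at the floor there, beside 3.26% of all genes higher. Crhr1, the receptor for corticotropin-releasing hormone on corticotropes, was listed at 0 in Ghcre cells, at 3.46 in the adult whole gland and at 3.55 in the P7 whole gland. It was the 1 gene of the list at the floor in Ghcre cells against the adult whole gland and was called lower, beside 5.36% of all genes. It was 0.414 in adult Tshbcre, 1.52 in Lhbcre and 0.648 in P7 Tshbcre cells.

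Of the ligand genes, 3 of 9 reached 1 scaled FPKM in some library. Th, which encodes the rate-limiting enzyme of dopamine synthesis, stood at 3.10 in adult Tshbcre cells, 0.428 in Lhbcre cells and 0.403 in the adult whole gland. At P7 the level was 2.63 for Tshbcre cells and 0.632 for the whole gland. Ddc, the next enzyme of that pathway, reached 2.76 and Ghrl, the ghrelin gene, 2.49, both in P7 Tshbcre cells, and with assembled transcripts added Ghrl was higher in the P7 whole gland, at 7.72. At most 3 of the 9 ligand genes reached the floor in a comparison, and none was called on annotated isoforms, beside 3.22% to 5.24% of all genes higher and 3.31% to 6.11% lower. With the addition Th was at 4.68 in adult Tshbcre cells, 4.05-fold above the adult whole gland. In that comparison 2 of the 3 ligand genes at the floor were then called higher, beside 2.51% of all genes. Trh, Ghrh and Sst were under 1 scaled FPKM in every library with or without the addition. Gnrh1, the gonadotropin-releasing hormone gene, was listed at 0 in adult Tshbcre and Lhbcre cells, and an assembled transcript in its locus took adult Tshbcre cells to 3.71, 4.31-fold above the 0.0941 of the adult whole gland.

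Among 11 partners and regulators of such receptors, Rgs4, which speeds the shutdown of G protein signals, ranged most. It stood at 35 in adult Tshbcre cells, 55.5 in Lhbcre cells, 0.450 in Ghcre cells and 7.00 in the adult whole gland. P7 Tshbcre cells were at 60.8, against 20.5 in the P7 whole gland. It was high in the libraries of both glycoprotein hormone lineages and low in Ghcre cells. Rgs4 was 4.50-fold and 7.06-fold higher in adult Tshbcre and Lhbcre cells than in the adult whole gland, and 5.51-fold lower in Ghcre cells. In these comparisons 8, 10 and 6 genes of the list were at the floor. Of all genes, 3.22% and 3.85% were higher in the first 2, and 5.36% lower in Ghcre cells. Rgs3 was 5.00-fold lower in P7 Tshbcre cells than in the P7 whole gland, at 0.555 against 6.78, and not 4-fold apart with assembled transcripts added. Of 10 genes of the list at the floor there on annotated isoforms, 3 were called lower, beside 6.11% of all genes. The receptor kinase genes Grk2, Grk3 and Grk6 were called in several comparisons, each with 1 library listed at 0. With assembled transcripts added, Grk2 stood between 9.63 and 13.8 in all 6 libraries. The beta-arrestin gene Arrb2 stood at 14.7 in Lhbcre cells and 3.60 to 8.13 in the other 5, and at 39.3 in Lhbcre cells with the addition.

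The 8 genes of G protein alpha subunits, which carry the receptor signal inward, gave no call in any of the 9 comparisons, beside the same shares of all genes, at which 8 genes would give less than 1 call in a comparison. Gnas, the stimulatory subunit used by the receptor for growth hormone-releasing hormone, was the highest, at 725 in Ghcre cells and 1164 to 2432 in the others. Gnao1 and Gnai2, inhibitory subunits, stood at 35.5 to 50.4 and 27.0 to 42.3 in the 5 libraries that list them. Gna11 and Gnaq, which couple the receptors for thyrotropin-releasing and gonadotropin-releasing hormone to phospholipase C, stood at 11.1 to 16.9 and 6.45 to 11.3.

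**Figure D4:**
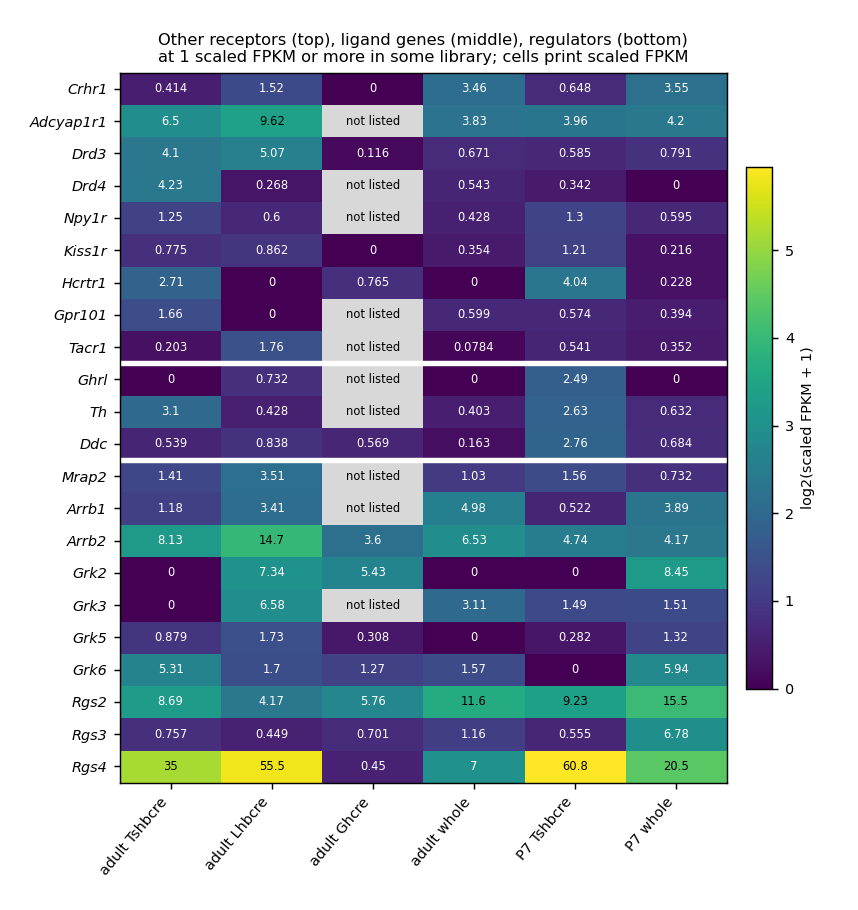
Levels of other receptors, ligand genes and regulators at 1 scaled FPKM or more in some library, coloured by log2(scaled FPKM + 1) with the scaled FPKM printed in each cell. Rgs4 is 35 to 60.8 in the Tshbcre and Lhbcre libraries and 0.450 in Ghcre cells.

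The genes whose levels across libraries were most like each receptor were listed for the receptors with a log2 range of 2 or more. Trhr was closest to Jph4, a junctophilin gene, at r = 0.99 over 6 libraries among 957 genes. Jph4 stood at 5.16 in adult Tshbcre cells and 5.06 in P7 Tshbcre cells, and at 0.201 to 0.613 in the other 4. Rorb and Gm18684 followed for Trhr, both at r = 0.97, and Rorb, an orphan nuclear receptor gene, stood at 12.6 in adult Tshbcre cells, 13.1 in P7 Tshbcre cells and 1.78 to 3.40 in the others.

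Gnrhr was closest to Dlgap1, Bean1 and LOC118567572 at r = 0.97 to 0.98 over the 5 libraries that list it. Dlgap1 stood at 12.6 in Lhbcre cells, 3.61 in adult Tshbcre cells and 0.658 to 1.06 in the other 3. Drd2 was closest to Abca4, St14 and Entpd1 at r = 0.98 to 0.99 over 5 libraries, and St14, a membrane protease gene, stood at 12.6 in the adult whole gland and 0.842 to 5.48 in the others. Ghrhr was closest to Aldoc, Mlc1 and Rnase4, a likeness that rests on its annotated zeros. These genes were picked as the closest of 957 to 1122, so the coefficients describe the libraries only, which also share scaling and, between the sorted ones, the sort.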

How the data were processed

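RNA of 6 mouse pituitary libraries was analysed, 1 library per group, grouped by the labels. Per the labels' protocols, libraries were made from 250 ng of RNA after ribosomal depletion. Per the submitters' processing notes, FastQC, Bowtie2 and Cufflinks were used with the build mm39, without versions or a strand setting. The deposited Cufflinks tables give FPKM per transcript with bounds, as the authors computed them, and a coverage signal. The deposited coverage was a constant multiple of FPKM in each library, from 2.68 to 7.32, and served as relative depth only. Read totals are not known from these sources.

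FPKM was summed over the annotated isoforms of a gene and divided by 1 factor per library, the median of ratios over 5808 genes at 1 FPKM or more in all 6 tables. The factors were 1.00 in adult Tshbcre, 0.967 in Lhbcre, 0.758 in Ghcre, 1.10 in the adult whole gland, 0.976 in P7 Tshbcre and 1.42 in the P7 whole gland. A pseudocount of 1 was added before log2. Unnamed transcripts of 200 nt or more were added where the locus held 1 named gene. The calls were checked on simulated data with counting error only. That check cannot cover spread between animals or the assignment of reads to isoforms and assembled transcripts. Alternatives were the scaling, the pseudocount, the floor, the value of a gene and, chosen after seeing the data, fragments per longest isoform.

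The members and lists were chosen with earlier results of these data known. All 9 receptors are named. Of the other lists, genes 4-fold apart in some comparison and up to 4 further genes of highest level were named. Bounds cover counting and assignment within a library only. Python 3.11.15 with pandas 2.3.3, numpy 2.4.6 and matplotlib 3.10.9 was used. Promoter windows came from RefSeq on GRCm38.p6, and coordinates of genes from the tables on mm39.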

Additional observations from a re-analysis of the deposited data

Results flagged for a closer look

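The difference between Tshbcre cells and the whole gland pointed opposite ways at the 2 ages for a pair of receptors, with 1 library on each side, and the difference between ages was not tested. For Gnrhr the log2 difference was 1.60 in the adult, at 28.4 against 8.69 scaled FPKM, and -0.04 at P7, at 8.91 against 9.17. The P7 value is near 0, its libraries have overlapping bounds, and with libraries scaled to the same annotated sum it is 0.26, of the other sign. For Sstr1 the log2 difference was -0.95 in the adult, at 0.730 against 2.34, and 0.94 at P7, at 4.48 against 1.86.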

How the results depend on the processing

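No paired analysis was possible because each group has 1 library, and for the same reason no replicate could be left out. Of 72 differences of single receptors, 11 were called 4-fold apart. With assembled transcripts added, 66 kept their call or lack of a call. Uncalled differences that changed sign are among these, as for Sstr5 in Ghcre over adult whole, at -1.33 and then 0.76. Of the called differences, Ghrhr reversed in adult Tshbcre over Lhbcre cells, at -1.05, and over P7 Tshbcre cells, at -0.85. In the last comparison Drd2 passed the limit instead, at 2.47. The numbers of receptors called fell with that addition to 1 from 2 in adult Tshbcre over adult whole, Lhbcre over adult whole and adult Tshbcre over Lhbcre. A pseudocount of 0.1 gave 4 called, against 2, in adult Tshbcre over adult whole and 3, against 1, in adult over P7 Tshbcre, and it gave 1, against 0, in Ghcre over adult whole, Lhbcre over Ghcre and adult over P7 whole. Fragments per longest isoform gave 1, against 2, in Lhbcre over adult whole. The most abundant isoform gave 1, against 2, in adult Tshbcre over Lhbcre. An equal sum over annotated genes gave 0, against 1, in adult Tshbcre over Ghcre, where Trhr came to just under the limit. The cause was not tested for these changes. That scaling moves the median log2 ratio over genes to 1.33 in Ghcre over adult whole and to -1.32 in adult Tshbcre over Ghcre, and the share of calls that are higher from 45.3% to 79.2% and from 50.5% to 19.0%. FPKM as deposited and the other floors changed no count of receptors by over 1.5 times. Ghsr and Sstr5 lie near or under the floor of 1 scaled FPKM on annotated isoforms, and the part of depth in their values was not tested.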

Other observations

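Assembled transcripts in the Gnrhr locus reached past the annotated 3' end in all 5 libraries that list the gene. The overhang was 1076 bases in adult Tshbcre cells, 832 in Lhbcre cells and 1075 in the adult whole gland, and 427 in P7 Tshbcre cells, against 1084 in the P7 whole gland. These transcripts were 2784 to 3619 nt long and stood at 62.2 scaled FPKM in adult Tshbcre cells and 79.8 in Lhbcre cells, against 14.3 in the adult whole gland. P7 Tshbcre cells had 15.8, and the P7 whole gland had 2 such transcripts at 5.17 and 13.6. The assembled level was above the annotated level in each of the 5 libraries. The level order of the libraries was Lhbcre, then adult Tshbcre, on either set.

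In the Ghrhr locus, 1 or more assembled transcripts passed the annotated end in each of the 5 libraries that list it, by 184 to 367 bases.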
